A study of Homo sapiens with 4 samples.

Results

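Protein disulfide isomerases and their oxidases were followed here as 10 genes, found by symbol among the 20323 gene rows of each deposited table: P4HB, PDIA3, PDIA4, PDIA5, PDIA6 and TXNDC5, which carry thioredoxin-like domains with catalytic cysteines, the related proteins ERP29 and ERP44, and the oxidases ERO1A and ERO1B. Each symbol matched 1 row, and all 10 were among the 12560 genes with enough counts to be tested. The libraries were ribosome footprints of HCT-8 cells, which come from a human colorectal adenocarcinoma, in a derivative that resists 5-fluorouracil. OE cells carried a METTL14 overexpression plasmid and NC cells a negative control plasmid, with 2 libraries per group that the submitters describe as independent experiments. All cells were resistant and all were given cycloheximide at 100 ug/mL, which stops ribosomes on the messages they translate. The promoter of the plasmid and the share of cells that took it up were not stated in the sources used here.

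Proteins that enter the endoplasmic reticulum (ER) often need disulfide bonds to fold. Disulfide isomerases make these bonds in client proteins and reshuffle wrong ones, and ERO1 oxidases restore the isomerases to their oxidized state by passing electrons to oxygen, which yields hydrogen peroxide. Many of these genes are known targets of the unfolded protein response, whose factors ATF6 and XBP1 act at an element called ERSE, a CCAAT box spaced from the letters CCACG. In secretory epithelia such as the colon the pathway serves mucins, receptors and adhesion proteins.

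Promoter sequence was taken from RefSeq (GRCh38.p14), as windows of 250 bases before to 50 bases after an annotated start, to show which of the 10 genes carry the ERSE letters. Windows were found for 9 of them, and PDIA3 had none in the table used. On either strand the motif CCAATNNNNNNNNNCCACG was present in 27 of 35116 windows of this length, or 0.0769%, and among the 10 genes in PDIA6 and ERO1B. The related element ERSE-II (ATTGG and CCACG separated by any 1 base, so that a match overlaps a CCACG match) was in 0 of the 12 windows of these genes and in 0.0541% of all windows. The motif TGACGTGG, whose last bases are the reverse complement of CCACG, was in 1 TXNDC5 window and in 0.729% of all. CCAAT alone was found in 7 of the 12 windows and in 34.6% of all windows, and CCACG alone in 7 of the 12 and in 38.1%. Stretches of 80 bases are printed 5′ to 3′ for the 2 genes with the full element and for PDIA4 and P4HB, whose windows hold CCAAT boxes without it, with each CCAAT or CCACG of either strand in capitals (ATTGG and CGTGG are their reverse complements). They lie on the minus strand at chr2:10812836-10812915, chr1:236282129-236282208, chr7:149028511-149028590 and chr17:81860631-81860710 in the order printed.
PDIA6: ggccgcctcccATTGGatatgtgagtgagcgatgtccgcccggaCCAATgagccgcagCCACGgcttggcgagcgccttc
ERO1B: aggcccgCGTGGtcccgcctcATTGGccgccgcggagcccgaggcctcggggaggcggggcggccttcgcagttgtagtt
PDIA4: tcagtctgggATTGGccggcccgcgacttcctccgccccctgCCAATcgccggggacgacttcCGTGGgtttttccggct
P4HB: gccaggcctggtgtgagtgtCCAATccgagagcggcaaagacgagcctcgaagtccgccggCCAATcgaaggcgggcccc
In PDIA6 the element begins 86 bases before the start, and in ERO1B it lies on the opposite strand and its first printed base is 243 bases before the start. A match describes letters in a window and was not tested as a site.

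Estimated footprint counts per library totalled 7742274 and 24392875 in OE replicates 1 and 2, against 21846389 and 18707758 in NC replicates 1 and 2. Levels are given as CPM, the depth-scaled count, with library sizes adjusted by TMM, and intervals are exact Poisson 95% intervals that cover counting error only. METTL14 itself had 448 and 91.2 CPM in OE, against 44.5 and 47.6 CPM in NC. OE replicate 1 stood apart from the other libraries. The OE libraries correlated at 0.863 across log2 CPM of all tested genes and the NC libraries at 0.983. When genes were ranked by their NC level and divided into 10 bins of 1256 genes, the median difference of OE replicate 1 from the NC mean was 1.17 on the log2 scale in the lowest bin and -1.08 in the highest, while the bin medians of OE replicate 2 stayed between -0.09 and 0.07. Of the 10 genes, 7 lay in the highest bin (bin 10), PDIA5 and ERO1A in bin 8 and ERO1B in bin 7. The set as a whole and the related lists are therefore also given without it. Summed colorectal epithelial markers stood at 6278 and 24780 CPM in OE, against 21959 and 21328 CPM in NC, mostly from the keratins KRT8, KRT18 and KRT19. Of 11 tested, 4 were lower in both OE libraries (20.4% of all genes), 1 (CDX2) was higher (19.9%) and 6 overlapped. CEACAM5 and CEACAM6 stayed below 1 CPM in each library. Of 8 fibroblast and 8 leukocyte markers 6 each, and of 6 endothelial markers all 6, stayed below 1 CPM everywhere. The fibroblast markers summed to 6.97 and 2.99 CPM in OE, against 9.84 and 10.3 CPM in NC (THY1 was at 0 throughout). The endothelial markers summed to 0.476 and 0 CPM in OE, against 0.360 and 0.410 CPM in NC (CDH5, KDR and TEK at 0). The leukocyte markers summed to 43.5 and 31.7 CPM in OE, against 82.2 and 84.7 CPM in NC, mostly from the lysosomal gene CD68 (CD3E, CD3D and MS4A1 at 0). The part of these markers in the results was not tested.

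Footprint levels of all 10 genes were lower in each OE library than in either NC library, and with library totals as sole scaling those of 7 were (PDIA5, ERO1A and ERO1B then overlapped, and 11.8% of all genes were lower in both). Together they took 0.664% and 0.724% of all counts in OE, against 1.33% and 1.28% in NC, and their summed level was 6436 ± 2186 CPM in OE and 14488 ± 628 CPM in NC (SD, n = 2 each), a ratio of 0.444. Leaving out OE replicate 1 gave a ratio of 0.551, and leaving out OE replicate 2 gave 0.338. The median log2 fold change was -0.80, against 0.09 over all genes tested. None was called: in the quasi-likelihood test of edgeR, with p-values adjusted by the method of Benjamini and Hochberg, 0 of the 10 passed the threshold of 0.05, with adjusted p between 0.734 and 0.842, as did 0% of all genes tested (0 of 12560). At an unadjusted p below 0.05 there were 0 of the 10 and 691 of all genes, and with the DESeq2 Wald test 0 of the 10 and 25 of all genes passed after adjustment, with 3 of the 10 and 846 of all 12560 genes at an unadjusted p below 0.05. With TMM scaling 20.4% of all genes tested were lower in both OE libraries, and 19.9% were higher in both, beside 10 and 0 of these genes. In the bin with the highest NC level 565 of 1256 genes were lower in both, among them the 7 of these genes that it holds.

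The direction was shared by the OE libraries, and the sizes differed. The median of the 10 genes stood at -1.22 in OE replicate 1, and at -0.59 for OE replicate 2, relative to the NC mean on the log2 scale, with all 10 below the NC mean in each. Set against the median of genes in their own bin of NC level, 9 of the 10 (all but ERO1A) were lower in OE replicate 1, with a median difference of -0.22, and 10 of 10 in OE replicate 2, with a median difference of -0.55. Without OE replicate 1, edgeR's test called 7 of the 10 lower (17% of all genes were called lower), with adjusted p from 2.15e-08 for PDIA4 to 0.0149 for PDIA5, and did not call TXNDC5 (0.0635), ERP29 (0.115) and ERO1A (0.228). Without OE replicate 2 edgeR's test called 9 of the 10 lower (30.7% of all genes), with adjusted p from 6.60e-13 for P4HB to 0.00979 for ERO1B, and ERO1A was the exception (0.354). In both of these fits the spread came from the NC libraries alone and the single OE library was assumed to vary like them. A footprint count depends on how much message there is and on how many ribosomes sit on it, and in bulk cells fewer cells with a message and less of it per cell cannot be told apart.

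**Figure D1:**
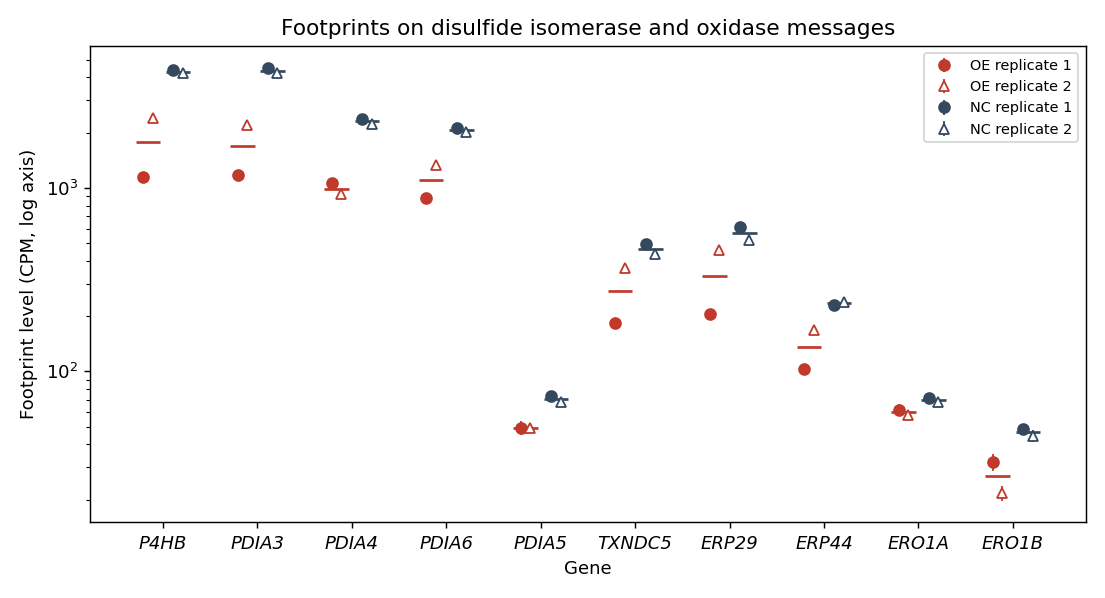
Footprint level in CPM (log axis) of the 10 genes in the 2 OE and 2 NC libraries. Points are libraries with exact Poisson 95% intervals, mostly smaller than the symbols, and bars are group means (n = 2). Every OE point lies below both NC points of its gene, with ERO1A the closest.

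P4HB is protein disulfide isomerase itself, which also serves as the beta subunit of collagen prolyl 4-hydroxylase. It had 1143 and 2407 CPM in OE, against 4403 and 4207 CPM in NC, or 1775 ± 894 CPM in OE and 4305 ± 139 CPM in NC (SD, n = 2 each). PDIA3 (ERp57), the isomerase that works with the lectin chaperones on glycoproteins, had 1176 and 2206 CPM in OE, against 4495 and 4204 CPM in NC. In both genes OE replicate 1 was the lowest library and OE replicate 2 was about midway between it and NC. The log2 fold changes were -1.28 (SE 0.73) for P4HB and -1.36 (SE 0.71) for PDIA3, both with an edgeR adjusted p of 0.734. With cyclic loess scaling, which was chosen after seeing the data and evens out differences along abundance, they were -0.56 and -0.62. Relative to the median of their bin of NC level, P4HB and PDIA3 differed by -0.83 and -0.81 in the first OE library, while the second OE library gave -0.76 for P4HB and -0.90 for PDIA3.

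PDIA4 (ERp72), a large isomerase found with HSPA5 in chaperone complexes, had its lowest value in OE replicate 2, unlike P4HB and PDIA3. It had 1061 and 921 CPM in OE, against 2374 and 2239 CPM in NC (991 ± 98.7 CPM in OE and 2307 ± 95.9 CPM in NC, SD, n = 2 each). With TMM scaling the OE values lay close together and well apart from NC, whereas with library totals they were 1439 and 835 CPM in OE, against 2110 and 2041 CPM in NC, and OE replicate 1 then lay between OE replicate 2 and NC. PDIA4 had a log2 fold change of -1.22 (SE 0.57, edgeR adjusted p = 0.734), and -0.51 with cyclic loess scaling. Relative to the median of its bin of NC level OE replicate 2 stood at -1.25 and OE replicate 1 at -0.04, near other genes of like level. PDIA4 counts held a fraction in all 4 libraries, which an estimated count can hold where a read is shared between rows.

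PDIA6 (P5), which acts on substrates of HSPA5, had 876 and 1325 CPM in OE, against 2128 and 2021 CPM in NC. PDIA5 (PDIR), a further ER isomerase, had 49.3 and 48.9 CPM in OE, against 73.4 and 67.9 CPM in NC. TXNDC5 (ERp46), with several thioredoxin domains that introduce disulfides quickly, had 183 and 367 CPM in OE, against 494 and 437 CPM in NC. With TMM scaling the OE values of PDIA5 were nearly equal and those of PDIA6 were apart. With library totals PDIA6 had 1189 and 1201 CPM in OE, against 1892 and 1843 CPM in NC. PDIA5 then had 66.9 and 44.3 CPM in OE, against 65.3 and 62.0 CPM in NC, so that OE replicate 1 lay above NC. Means were 1101 ± 317 CPM in OE and 2075 ± 75.8 CPM in NC for PDIA6, 49.1 ± 0.304 CPM in OE and 70.7 ± 3.89 CPM in NC for PDIA5, and 275 ± 130 CPM in OE and 466 ± 40.8 CPM in NC for TXNDC5 (SD, n = 2 each). The log2 fold changes were -0.91 (SE 0.59) for PDIA6, -0.53 (SE 0.29) for PDIA5 and -0.76 (SE 0.52) for TXNDC5, each with an edgeR adjusted p of 0.734. With cyclic loess scaling PDIA6 was at -0.22 and TXNDC5 at -0.34, and with library totals PDIA5 was at -0.19. The TMM-scaled intervals of PDIA5, at most 53.7 CPM in OE and at least 64.1 CPM in NC, did not overlap. From the NC mean, TXNDC5 was at -1.35 in OE replicate 1 and, at -0.34, much nearer in OE replicate 2. A readthrough row, BLOC1S5-TXNDC5, overlaps TXNDC5 and held between 12.2 and 51.9 estimated counts in a library, against at least 1918 for TXNDC5.

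ERP29 has a thioredoxin fold without the catalytic cysteine pair and acts as a folding helper. It had 206 and 459 CPM in OE, against 613 and 517 CPM in NC, and its log2 fold change was -0.76 (SE 0.56, edgeR adjusted p = 0.741). ERP44 holds back clients and the ERO1 oxidases, which lack an ER retention signal of their own, by returning them to the ER. It had 103 and 168 CPM in OE, against 231 and 238 CPM in NC, with a log2 fold change of -0.79 (SE 0.41, edgeR adjusted p = 0.734). In OE replicate 2 ERP29 came near the lower NC library, with -0.29 from the NC mean on the log2 scale, while ERP44 was at -0.48. With cyclic loess scaling the fold changes of ERP29 and ERP44 were -0.33 and -0.44.

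The oxidases lay at different distances from NC. ERO1A, the widely expressed form that is also induced by hypoxia, had 61.6 and 57.9 CPM in OE, against 71.5 and 67.9 CPM in NC. Its intervals in OE replicate 1 (56.9 to 66.5 CPM) and NC replicate 2 (64.0 to 71.9 CPM) overlapped, and they were the nearest pair of OE and NC libraries for this gene. ERO1B, known best from pancreas and other professional secretory cells, had 32.0 and 21.7 CPM in OE, against 48.7 and 44.5 CPM in NC. With TMM scaling its intervals, for counting error only, were 28.7 to 35.6 CPM and 19.8 to 23.7 CPM in OE. They lay below the lowest NC bound of 41.4 CPM. With library totals ERO1B had 43.4 and 19.6 CPM in OE, against 43.3 and 40.6 CPM in NC, so that OE replicate 1 was not below NC. The log2 fold changes were -0.22 (SE 0.29, edgeR adjusted p = 0.842) for ERO1A and -0.80 (SE 0.33, adjusted p = 0.734) for ERO1B. In this fit ERO1A was thus the gene of the set nearest to its NC level. Scaled by library totals alone, ERO1A had 83.6 and 52.5 CPM in OE, against 63.5 and 61.9 CPM in NC. Its OE values then lay on either side of NC. With library totals as sole scaling ERO1A was at 0.12 and ERO1B at -0.42, where the median of all genes was 0.40, and with cyclic loess scaling they were at -0.08 and -0.88. Within a library, free of any scaling, there were 1.93 and 2.67 ERO1A footprints per ERO1B footprint in OE, against 1.47 and 1.53 in NC. How many of all genes had a higher ratio to ERO1B in both OE libraries was not counted. The ratio is therefore not a result about ERO1A. A two-sided exact permutation test cannot go below 0.333 with 2 libraries against 2, and this ratio was not tested in any other way. ERO1B and PDIA6, whose windows hold the full ERSE letters, had log2 fold changes of -0.80 and -0.91. The other 7 genes with a window ran from -1.28 (P4HB) to -0.22 (ERO1A), on both sides of these values.

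**Figure D2:**
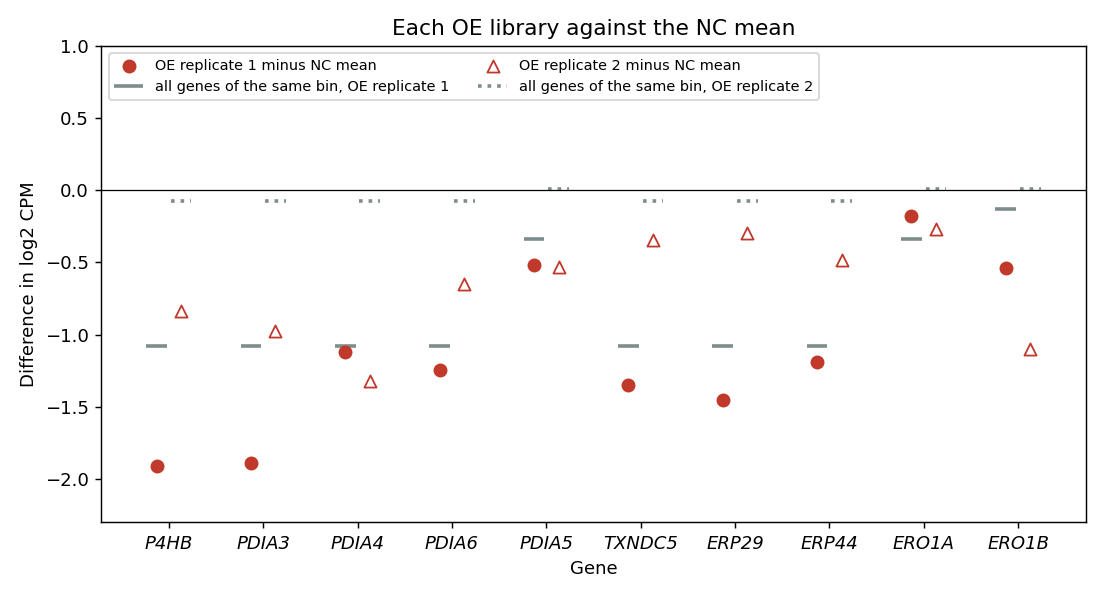
Difference in log2 CPM of each OE library from the NC mean for the 10 genes. Grey bars give the median over all genes in the same bin of NC level, solid for OE replicate 1 and dotted for OE replicate 2. P4HB and PDIA3 lie lowest in OE replicate 1, PDIA4 and ERO1B lowest in OE replicate 2.

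The make-up of the set was nearly the same in the NC libraries and differed between the OE libraries. P4HB took 23.4% and 30.2% of the set's footprints in OE, against 29.5% and 30.0% in NC, and PDIA4 took 21.7% and 11.5% in OE, against 15.9% and 15.9% in NC. The oxidases together took 1.91% and 0.997% in OE, against 0.805% and 0.800% in NC. ERO1A alone took 1.26% and 0.726% in OE, against 0.479% and 0.483% in NC. ERO1B took 0.654% and 0.271% in OE, on either side of the 0.326% and 0.317% in NC. How many of all genes rose relative to this set was not counted, so these shares are not a result about the oxidases. The genes also varied in how the OE libraries related to each other. The log2 difference of OE replicate 1 minus OE replicate 2 ran from -1.16 for ERP29 and -1.07 for P4HB to 0.20 for PDIA4 and 0.56 for ERO1B, with 0.01 for PDIA5 and 0.09 for ERO1A. Library totals place every one of these differences higher, at -0.58 for ERP29, -0.01 for PDIA6, 0.59 for PDIA5 and 1.14 for ERO1B, so the order of the genes is the same while which of them match between the OE libraries depends on the scaling. Between the NC libraries the same genes differed by at most 0.25 in size (ERP29). Relative to P4HB, PDIA3 differed least between libraries. It had 1029 and 917 footprints per 1000 of P4HB in OE, on either side of the 1021 and 999 in NC. PDIA4 stood at 928 and 383 in OE, on either side of the 539 and 532 in NC. PDIA6 had 767 and 551 in OE, against 483 and 480 in NC, and ERO1A had 53.9 and 24.1 in OE, against 16.2 and 16.1 in NC. ERP44 had 89.9 and 69.7 in OE, against 52.4 and 56.7 in NC. Of the 9 genes other than P4HB, 6 had a higher proportion to P4HB in both OE libraries and 3 (PDIA3, PDIA4 and ERO1B) overlapped with NC. As 83.3% of all genes tested had a higher proportion to P4HB in both OE libraries, this count is not a result about these genes. A count grows with the length of the coding region and no lengths were used here, so levels within this set were not ranked. The bins of NC level, and the choice of the gene with the highest CPM in a list, did rank genes by CPM. That ranking was not corrected for length, and values given relative to a bin share this limit.

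**Figure D3:**
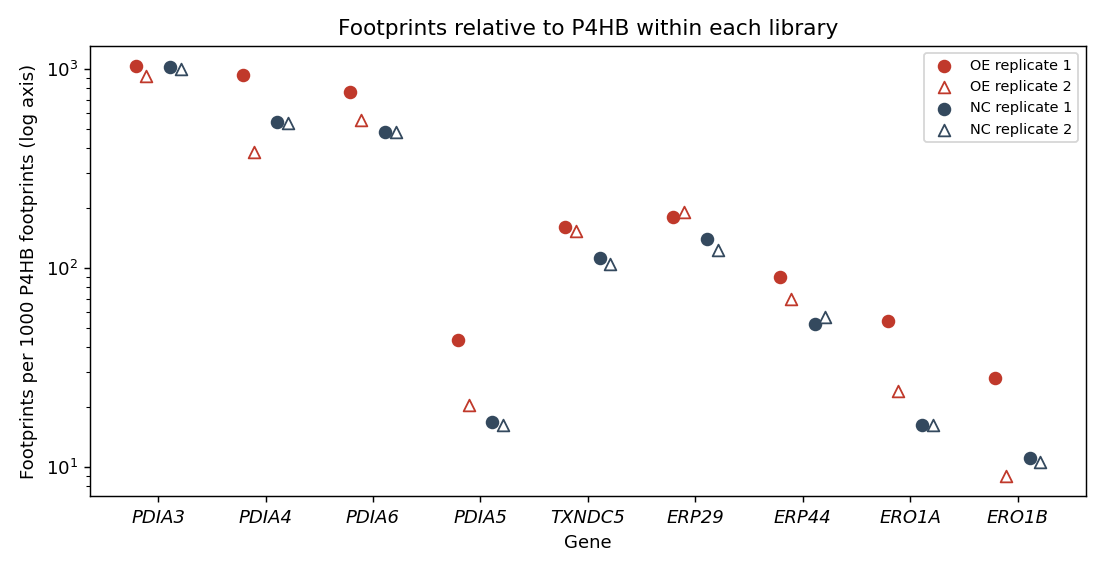
Footprints of 9 genes per 1000 P4HB footprints (log axis) within each of the 2 OE and 2 NC libraries, with no scaling between libraries. PDIA3, PDIA4 and ERO1B have OE values on either side of NC, with those of PDIA3 the nearest to it.

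Genes around the isomerases were read from the same fit, in lists set by known role. Over all genes tested 20.4% were lower in both OE libraries and 19.9% were higher in both. In the bin with the highest NC level 565 of 1256 genes were lower in both. At an unadjusted p below 0.05 in edgeR's test there were 691 of all 12560 genes. Whether a list differed from these shares was not tested. No gene of any of the 8 lists was called by edgeR (0 after adjustment), and the sign of 7 of the 8 medians was the same with library totals as sole scaling, the regulators being the exception. Without OE replicate 1 all 8 medians kept their sign, between -0.70 (clients) and -0.22 (regulators) for 7 lists. The list of thioredoxin-fold proteins outside the ER, which also holds the reductases TXNRD1 and TXNRD2, was then at 0.48. Without OE replicate 2 this list turned to -0.85. Of 13 other tested genes of the disulfide isomerase family, 7 were lower in both OE libraries, 0 were higher and 6 overlapped, with a median log2 fold change of -0.44 and 0 at an unadjusted p below 0.05. AGR2, the isomerase of mucin-producing cells, had 183 and 459 CPM in OE, against 658 and 736 CPM in NC. Its relative AGR3 had 15.2 and 21.2 CPM in OE, against 30.1 and 30.5 CPM in NC, and TXNDC11 had a log2 fold change of -0.57 (SE 0.29). DNAJC10 (ERdj5), a reductase of the ER, overlapped between the groups at 194 and 118 CPM in OE, against 147 and 167 CPM in NC. Among other genes of ER thiol oxidation 4 of 7 were lower in both, with a median of -0.56 and 0 at an unadjusted p below 0.05. The sulfhydryl oxidase QSOX1 had 442 and 835 CPM in OE, against 1133 and 954 CPM in NC. The selenoprotein SELENOF, VKORC1 (vitamin K epoxide reductase) and QSOX2 were lower in both, at -0.83 (SE 0.39), -0.83 (SE 0.47) and -0.56 (SE 0.36) on the log2 scale. PRDX4, the ER peroxiredoxin that uses the peroxide made by ERO1, overlapped between the groups with -0.47 (SE 0.53).

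Partners that bind the isomerases or are held by ERP44 were lower in both OE libraries in 6 of 9 cases (20.4% of all genes). Their median was -0.83, with 2 at an unadjusted p below 0.05 in edgeR's test (691 of all 12560 genes). ERAP1, an aminopeptidase retained by ERP44, had 32.9 and 48.3 CPM in OE, against 75.3 and 79.5 CPM in NC. P4HA2, a catalytic subunit of the prolyl hydroxylase to which P4HB belongs, had 95.9 and 182 CPM in OE, against 254 and 241 CPM in NC. These values and those of HSPA5 did not overlap between groups. HSPA5, the main ER Hsp70, had 2175 and 2638 CPM in OE, against 10525 and 11116 CPM in NC, a log2 fold change of -2.17 (SE 0.78), or -2.04 without OE replicate 1. CALR, the lectin that presents glycoproteins to PDIA3, had -1.52 (SE 0.87), or -1.19 without OE replicate 1 and -0.61 with cyclic loess scaling. TAPBP, which is joined to PDIA3 in the peptide-loading complex, overlapped between the groups with -0.27 (SE 0.50).

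All 8 ER prolyl isomerases tested were lower in both OE libraries, with a median of -0.67. Of all genes 20.4% were lower in both, and in the bin with the highest NC level 565 of 1256 were. The prolyl isomerases included FKBP7 with -1.43 (SE 0.36), FKBP2 with -0.86 (SE 0.35), FKBP14 with -0.59 (SE 0.31) and PPIB with -0.84 (SE 0.69). Of 11 oligosaccharyltransferase subunits 10 were lower in both, with a median of -0.79, among them MAGT1, itself a thioredoxin-fold oxidoreductase, with -0.95 (SE 0.36). TMEM258, RPN2 and DDOST had -0.77 (SE 0.33), -1.05 (SE 0.56) and -0.87 (SE 0.62). Of 20 disulfide-bonded clients at the cell surface 13 were lower in both and 0 higher (19.9% of all genes), with a median of -0.63. Scaled by library totals alone, 9 were lower (11.8% of all genes) and 1 higher (30.2%). The growth factor receptor EGFR had 84.7 and 71.7 CPM in OE, against 174 and 188 CPM in NC, and the laminin chain LAMB3 and integrins ITGB4 and ITGA6 had -1.15 (SE 0.39), -1.21 (SE 0.44) and -0.75 (SE 0.49). At an unadjusted p below 0.05 in edgeR's test there were 1 prolyl isomerase, 1 transferase subunit and 3 clients, beside 691 of all 12560 genes.

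Thioredoxin-fold proteins outside the ER, listed with the thioredoxin reductases TXNRD1 and TXNRD2, which have another fold, did not lie to one side. Of 19 tested, 3 were lower in both OE libraries (20.4% of all genes), 3 higher (19.9%, TXNRD2 among them) and 13 overlapped. Their median log2 fold change was 0.06, with 1 at an unadjusted p below 0.05 in edgeR's test (691 of all 12560 genes). Their medians were -0.83 in OE replicate 1 and 0.47 in OE replicate 2, on opposite sides of NC. PRDX1, a cytosolic peroxiredoxin, had 922 and 4171 CPM in OE, against 2478 and 2401 CPM in NC. GLRX (glutaredoxin) had a log2 fold change of -0.89 (SE 0.30), TXNL4A, a spliceosome protein, -0.43 (SE 0.31), and the mitochondrial glutaredoxin GLRX2 0.48 (SE 0.35). The difference between this list and the ER genes was not tested.

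Of 14 regulators of the isomerase and oxidase genes 6 were lower in both OE libraries (20.4% of all genes), 0 higher (19.9%) and 8 overlapped. Their median was -0.12, with 2 at an unadjusted p below 0.05 in edgeR's test (691 of all 12560 genes). With library totals as sole scaling the median was 0.20, under the 0.40 of all genes. ATF6, the membrane-bound factor that activates ERSE promoters once cleaved, had 63.7 and 79.7 CPM in OE, against 124 and 145 CPM in NC. Its relatives ATF6B, at -0.74 (SE 0.31), and CREB3L2, at -0.93 (SE 0.28) on the log2 scale, were also lower in both. ATF4, the factor of the integrated stress response, had 301 and 97.7 CPM in OE, against 135 and 93.7 CPM in NC, so that OE replicate 1 alone stood above NC, and the log2 fold change of 0.80 (SE 0.63) became -0.23 without it. XBP1 overlapped between the groups at 115 and 134 CPM in OE, against 142 and 116 CPM in NC.

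**Figure D4:**
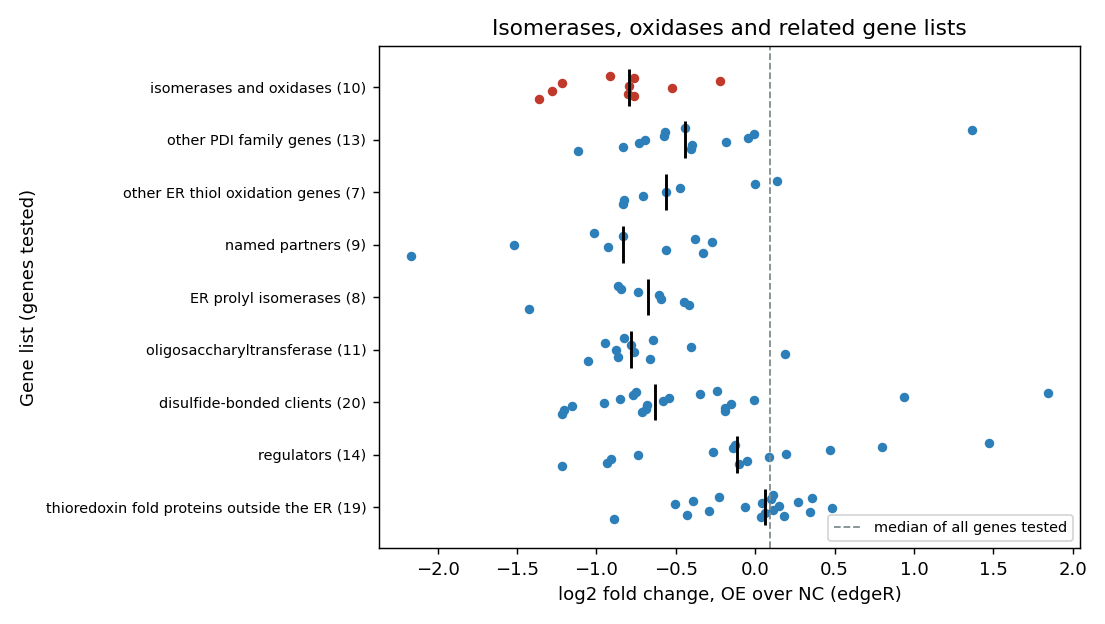
Log2 fold change of OE over NC by edgeR for the 10 isomerase and oxidase genes and for 8 related lists, with the number of genes tested in brackets. Points are genes, black bars list medians and the dashed line the median of all genes tested (0.09). The list of thioredoxin-fold proteins outside the ER, which also holds the reductases TXNRD1 and TXNRD2, centres near that line, with a median of 0.06.

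Outside these genes, the pattern over the 4 libraries most like the average of the 10 was sought among 8969 genes with a mean of at least 10 CPM, by the Euclidean distance between log2 CPM values centred on NC. The average stood at -1.14 and -0.68 in OE replicates 1 and 2. The nearest were NDUFA13 (distance 0.04), a subunit of respiratory complex I, AGRN (0.09), a secreted basement membrane proteoglycan, FKBP2 (0.10), LAPTM4B (0.10), a lysosomal membrane protein, and PARM1 (0.10). NDUFA13 had 402 and 537 CPM in OE, against 892 and 846 CPM in NC, and AGRN had 492 and 686 CPM in OE, against 1168 and 1109 CPM in NC. The distances describe 4 libraries and were not tested.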

How the data were processed

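Ribosome footprint libraries of 2 OE and 2 NC cultures were analysed, grouped and numbered by their titles. The authors deposited an estimated count per gene for each library, per the file headers. Build hg18 and the tools RSEM, StringTie, HISAT2, Bowtie2 and fastp were used, per the submitters' processing notes; settings, strand and versions were not stated in the sources used here, so overlapping genes cannot be told apart with certainty. Between 13.8% and 14.7% of values held a fraction, and counts were rounded for the tests. Rows without a symbol (169) kept their Ensembl identifier.

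In R 4.3.3, genes passing filterByExpr (minimum count 10, total 15, proportion 0.7) were scaled by TMM and tested with edgeR 4.0.16 (glmQLFit, group as the only term) with Benjamini-Hochberg adjustment over 12560 genes and a threshold of 0.05. Alternatives used DESeq2 1.42.0 and limma 3.58.1. Log2 CPM used a prior count of 2. The fit was also run on counts simulated from its own fitted spread. Those counts lacked the trend along gene abundance described above, so this run cannot show how the fit handles that trend. P-values set the difference between the groups against the spread between these libraries, which was estimated with information shared over genes.

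The genes, lists and tests were chosen with earlier results of these data known. Named were all 10 genes, METTL14, up to 3 genes per list with the smallest p, the gene with the highest CPM, and the 5 nearest patterns; other genes named were chosen after their values were seen. Symbols SELENOM and TXNRD3 matched no row.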

Additional observations from a re-analysis of the deposited data

How the results depend on the processing

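All 10 genes stayed lower in OE than in NC in every library with RLE scaling (20.0% of all genes did) and when any library was left out, where fewer libraries must be ordered and 42.5%, 45.5%, 25.1% and 25.7% of all genes did without OE replicate 1, OE replicate 2, NC replicate 1 and NC replicate 2. With library totals as the only scaling 7 of the 10 genes were lower in both OE libraries (11.8% of all genes), and PDIA5, ERO1A and ERO1B overlapped. That scaling moved the median of all genes to 0.40 and turned ERO1A to 0.12, the only change of sign among the 10 genes over all settings tried. The median log2 fold change of the 10 was -0.54 with library totals, -0.99 with limma and quality weights, -0.86 with the replicate block and -0.42 with cyclic loess scaling, which was added after seeing the data because OE replicate 1 differed from NC along gene abundance. With single libraries left out it lay between -1.22 and -0.59. The number of genes called was 29 with edgeR's likelihood ratio test, 25 with DESeq2 and 24 with the replicate block, against 0 in the fit reported, and between 3 and 7684 with single libraries left out (4212 without OE replicate 1, 7684 without OE replicate 2, 9 without NC replicate 1 and 3 without NC replicate 2). Of the 10 genes 0 were called in any fit over all 4 libraries, and between 0 and 9 with single libraries left out; the cause of these differences was not tested. The replicate numbers were treated as labels only. Same-numbered libraries' deviations correlated at -0.10, which with 2 libraries per group cannot decide whether those libraries share a batch. The block changed no call among the 10 genes, of which 0 were called without it. Levels per coding length were not run, as no lengths were used here. Low counts limit ERO1B most, with 336 counts in OE replicate 1. The related lists were recounted with library totals and without single OE libraries, also chosen after seeing the data. With library totals 4 of 13 other isomerase family genes, 4 of 7 thiol oxidation genes and 5 of 9 partners were lower in both OE libraries. So were 6 of 8 prolyl isomerases, 9 of 11 transferase subunits, 2 of 14 regulators and 9 of 20 clients (11.8% of all genes). It was 1 of 19 in the list of thioredoxin-fold proteins outside the ER. Of these last 19, 6 were then higher, and 1 gene each was higher among thiol oxidation genes, transferase subunits, regulators and clients (30.2% of all genes).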
